A study of Mus musculus with 4 samples.

Results

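The genes described here are the 99 transcribed neighbors of Tnfrsf11a, the gene for RANK, on mouse chromosome 1. They were read in 4 primary mammary tumors of female mice, tumors 26043 and 26044 of genotype WapCre;Rank;Brca1;p53, called triple-mutant, and tumors 26048 and 26050 of genotype WapCre;Brca1;p53, called double-mutant. All 4 mice carried the Wap-driven Cre, which is active in luminal and basal mammary epithelial cells, together with floxed alleles of Brca1 and Trp53, and the triple-mutant mice additionally carried floxed Rank. Cells outside the Cre-expressing epithelium keep these alleles whole and contribute RNA to a bulk tumor sample. The age of the mice, the strain background on chromosome 1 and the histological grade of each tumor are not given in the sources used here. Poly-T-selected RNA was sequenced as 50-bp single-end reads, and expression is given in FPKM, fragment counts scaled by transcript length and by the number of mapped fragments of the tumor.

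A gene was a member when its locus lay on chromosome 1 between 85780000 and 125850000, which is 20 Mb to either side of Tnfrsf11a, and when it reached 1 FPKM in at least 2 of the 4 tumors. The interval held 207 rows, of which 99 were under this threshold and another 9 were over it but left out by name in the choice of genes, Tnfrsf11a itself among them. The 99 members stand among 12752 rows that passed the same threshold genome-wide, of 23746 rows in all. Of the members, 72 lay before Tnfrsf11a and 27 after it. Just inside the threshold were Neu2, a sialidase, at 1.66 and 0.07 FPKM in triple-mutant and 1.02 and 0.94 in double-mutant tumors, and St8sia4, a polysialyltransferase, at 0.43, 1.06, 1.40 and 0.70 FPKM. Just outside it were Dpp10, with 0.91, 0.03, 7.46 and 0.26 FPKM, and C130036L24Rik, with 0.67, 0.90, 0.62 and 1.16 FPKM. Values of 4 tumors are always given in the order 26043, 26044, 26048, 26050.

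RANK is a receptor of the tumor necrosis factor family that is activated by its ligand RANKL and signals to NF-kB, and it is known for driving the progesterone-dependent expansion of mammary epithelium. Cre removes the sequence between loxP sites and leaves the neighboring genes in place. Neighbors can nevertheless vary together, because genes within one folded domain of a chromosome can share regulatory elements and because gains and losses of DNA in tumors often span many genes. The comparison therefore asks whether the difference in Tnfrsf11a mRNA between the genotypes was shared by the genes around it, near or far. DNA copy number and parental alleles were not analysed here.

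The genes around Tnfrsf11a are a mixture of cell maintenance genes and tissue-restricted families, and they lie in 8 runs separated by gaps of more than 1 Mb. The first run holds 64 members between 85793447 and 93852174 and includes genes of the nucleolus, the COP9 signalosome and the centromere. Tnfrsf11a lies in a run with 9 members, between 105518422 and 107608978, which extends into a cluster of clade B serpins, a family of intracellular protease inhibitors. No member lay between 2 and 5 Mb from Tnfrsf11a. After it follow 2 members, Cdh19 and Dsel, then a run of 13 members between 118298518 and 120271082, and Slc35f5 at the far end.

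The sequences that carry the comparison are those from which the nearest and the most divergent members start. Of the 8 pairs of members that lie within 1000 bases of each other, 7 are arranged head to head, so that a gap of 86 to 856 bases holds the start regions of both genes. Shown first are 3 such gaps, chosen after their values were seen, from the forward strand of GRCm38.p6, with the CCAAT box (the letters CCAAT) and the GC box (GGGCGG) in capitals on either strand. The first lies between Pign and 2310035C23Rik, the members closest to Tnfrsf11a on its upstream side (chr1:105663677-105663860). The second lies between Dbi and 3110009E18Rik (chr1:120121097-120121186), and the third between Ngef and Neu2 (chr1:87573871-87574026), and in each of these the genotype difference was large for one gene of the pair.
Pign to 2310035C23Rik: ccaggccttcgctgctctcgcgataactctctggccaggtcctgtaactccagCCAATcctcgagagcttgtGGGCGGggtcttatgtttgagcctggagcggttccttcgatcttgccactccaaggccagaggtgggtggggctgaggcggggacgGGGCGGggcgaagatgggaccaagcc
Dbi to 3110009E18Rik: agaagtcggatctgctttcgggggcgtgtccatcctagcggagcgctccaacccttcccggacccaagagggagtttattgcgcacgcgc
Ngef to Neu2: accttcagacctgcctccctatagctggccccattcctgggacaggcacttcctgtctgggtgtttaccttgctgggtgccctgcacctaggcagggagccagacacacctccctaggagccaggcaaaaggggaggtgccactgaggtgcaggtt
The gap between Pign and 2310035C23Rik held 1 CCAAT box and 2 GC boxes, whereas neither set of letters occurred in the other gaps. Among all RefSeq promoter windows cut to 184 bases, 27.8% held CCAAT and 30.4% held GGGCGG. Cut to 90 bases the shares were 17.4% and 23.4%, and cut to 156 bases they were 25.1% and 29.0%.

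The 250 bases upstream of the annotated start are shown for Tnfrsf11a, for Serpinb11, a serpin gene with one of the larger differences, and for Ncl and Ddx18, nucleolar genes on opposite sides of Tnfrsf11a with log2 fold changes of -0.94 and -0.90. They are given 5′ to 3′ on the strand of each gene, with the same capitals, and were also chosen after the values were seen. Their positions are chr1:105780473-105780722 (plus strand), chr1:107362064-107362313 (plus strand), chr1:86359456-86359705 (minus strand) and chr1:121567981-121568230 (minus strand).
Tnfrsf11a: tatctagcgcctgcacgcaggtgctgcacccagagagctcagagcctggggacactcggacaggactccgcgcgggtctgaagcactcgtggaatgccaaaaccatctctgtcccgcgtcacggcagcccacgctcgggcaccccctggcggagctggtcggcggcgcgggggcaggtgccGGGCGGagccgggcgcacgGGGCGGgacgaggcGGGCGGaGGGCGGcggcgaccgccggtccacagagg
Serpinb11: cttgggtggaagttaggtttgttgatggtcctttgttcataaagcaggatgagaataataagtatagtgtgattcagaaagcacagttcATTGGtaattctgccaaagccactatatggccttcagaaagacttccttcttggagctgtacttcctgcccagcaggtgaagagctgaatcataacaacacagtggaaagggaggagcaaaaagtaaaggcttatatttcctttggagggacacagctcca
Ncl: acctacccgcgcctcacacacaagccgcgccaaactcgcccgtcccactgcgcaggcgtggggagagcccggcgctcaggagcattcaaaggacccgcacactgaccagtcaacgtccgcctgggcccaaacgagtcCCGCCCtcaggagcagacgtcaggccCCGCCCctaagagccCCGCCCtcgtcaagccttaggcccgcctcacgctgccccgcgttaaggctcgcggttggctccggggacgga
Ddx18: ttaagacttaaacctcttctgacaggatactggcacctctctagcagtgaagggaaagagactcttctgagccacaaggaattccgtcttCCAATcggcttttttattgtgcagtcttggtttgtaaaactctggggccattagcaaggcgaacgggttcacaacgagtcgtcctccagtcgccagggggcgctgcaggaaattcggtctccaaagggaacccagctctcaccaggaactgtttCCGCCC
The windows of Tnfrsf11a and Ncl held GC boxes and no CCAAT, that of Ddx18 held both, and that of Serpinb11 held CCAAT alone. RefSeq gave 109 promoter windows for 84 different RefSeq genes matched to the 99 members. The window of Hjurp was counted once for each of its rows, Hjurp, 6430706D22Rik and A730008H23Rik. A GC box was found in 59.6% of the member windows and in 32.7% of all 32851 windows, and CCAAT in 34.9% and 33.8%. All windows include those of genes under the FPKM threshold, whereas members had to pass it. The sets are therefore unlike, and a difference in share cannot be read as a trait of this interval. The E box CACGTG was found in 7.34% and 6.02%, and the letters TATAAA of a promoter motif for TBP in 6.42% and 12.4%, all counted on both strands. None of these motifs contains another, and a match is a description of the sequence only.

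Tnfrsf11a itself, at chr1:105780723-105847981, was read at 2.07 and 0.96 FPKM in the triple-mutant tumors and at 10.6 and 11.9 FPKM in the double-mutant tumors. Both triple-mutant values were thus far under both others, with a log2 fold change of -2.32 (SE 0.37; triple-mutant minus double-mutant, on log2(FPKM + 1)). The adjusted p was 0.225 (limma with Benjamini-Hochberg adjustment over all rows tested). The genes floxed in both genotypes, Brca1 and Trp53, were read at 3.26, 3.28, 3.84 and 5.69 FPKM and at 15.7, 87.8, 150 and 103 FPKM, respectively.

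The tumors differed in markers of cell type as well as in genotype. Summed markers of basal epithelium reached 1736 and 1259 FPKM in the triple-mutant and 68.1 and 46.6 FPKM in the double-mutant tumors, with 5 of 6 markers higher in both triple-mutant tumors. The sums of the triple-mutant tumors were made up differently. In 26044 most of the sum was Acta2, at 898 FPKM beside 64.8 FPKM in 26043. Krt5, Krt14 and Krt17 were read at 114, 42.5 and 155 FPKM in 26044 and at 596, 611 and 435 FPKM in 26043. Trp63 and Myh11 were higher in 26044 than in 26043. Luminal markers summed to 1593, 209, 2019 and 1850 FPKM, with 4 of 4 lower in both triple-mutant tumors, so that tumor 26044 stood apart as low. Adipocyte markers ranged from 7.55 to 1350 FPKM without following genotype, and fibroblast markers from 97.7 to 172 in the triple-mutant and from 338 to 738 in the double-mutant tumors, with 2 of 4 markers lower and 1 higher in both triple-mutant tumors. Endothelial markers summed to 18.3 to 63.2 FPKM, T cell markers to 0.82 to 2.82 and B cell markers to 0.17 to 0.50 FPKM, and no panel had a marker at 0 in every tumor. Macrophage markers summed to 46.6 and 43.1 FPKM in triple-mutant and to 77.9 and 79.4 FPKM in double-mutant tumors, with 2 of 3 lower in both triple-mutant tumors, and the leukocyte marker was read at 3.67, 1.61, 3.97 and 4.02 FPKM. In bulk RNA, fewer cells of a type and less RNA per cell cannot be told apart.

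The 6 members within 1 Mb of Tnfrsf11a had smaller differences between the genotypes than Tnfrsf11a itself, from -0.18 to -1.20 log2 units, all of them negative. Between 1 and 2 Mb, Serpinb11 and Serpinb8 were positive, at 2.76 and 0.76. Within 2 Mb 7 of 9 members were negative (77.8%), beside 62.6% of all members and 73.4% of the rest of chromosome 1. 2310035C23Rik (Relch in RefSeq), whose product takes part in cholesterol transfer from recycling endosomes, lies 0.0256 Mb before Tnfrsf11a. It was read at 5.92 and 3.47 FPKM in triple-mutant and at 6.70 and 6.53 in double-mutant tumors (log2 fold change -0.45, SE 0.36), or -0.14 without tumor 26044 and -0.77 without tumor 26043. Pign, which adds ethanolamine phosphate to GPI anchors, lies behind it and was read at 4.59, 2.65, 4.99 and 3.99 FPKM, with a log2 fold change of -0.28 (SE 0.37). In both genes tumor 26044 was the lowest, and only for 2310035C23Rik did both triple-mutant values lie under both double-mutant values.

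On the other side, Zcchc2, a CCHC zinc finger gene 0.14 Mb after Tnfrsf11a, was read at 11.4 and 3.25 FPKM in triple-mutant and at 11.2 and 22.0 FPKM in double-mutant tumors. One triple-mutant tumor lay within the double-mutant range and the other under it, and the log2 fold change was -1.20 (SE 0.66), or -0.43 without tumor 26044 and -1.98 without tumor 26043. Phlpp1, a phosphatase that acts on Akt, was read at 6.46, 5.79, 6.97 and 7.18 FPKM (log2 fold change -0.18, SE 0.30). Kdsr, a reductase of sphingolipid synthesis, was read at 6.60, 5.45, 7.49 and 6.80 FPKM (log2 fold change -0.22, SE 0.31). Both genes were slightly lower in each triple-mutant tumor than in each double-mutant tumor, by less than their standard errors. Vps4b, the ATPase that disassembles ESCRT-III, was read at 28.3 and 17.6 FPKM against 33.5 and 35.3 FPKM (log2 fold change -0.60, SE 0.34), or -0.28 without tumor 26044 and -0.93 without tumor 26043. The genotypes did not overlap, and tumor 26044 was again the lowest.

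**Figure D1:**
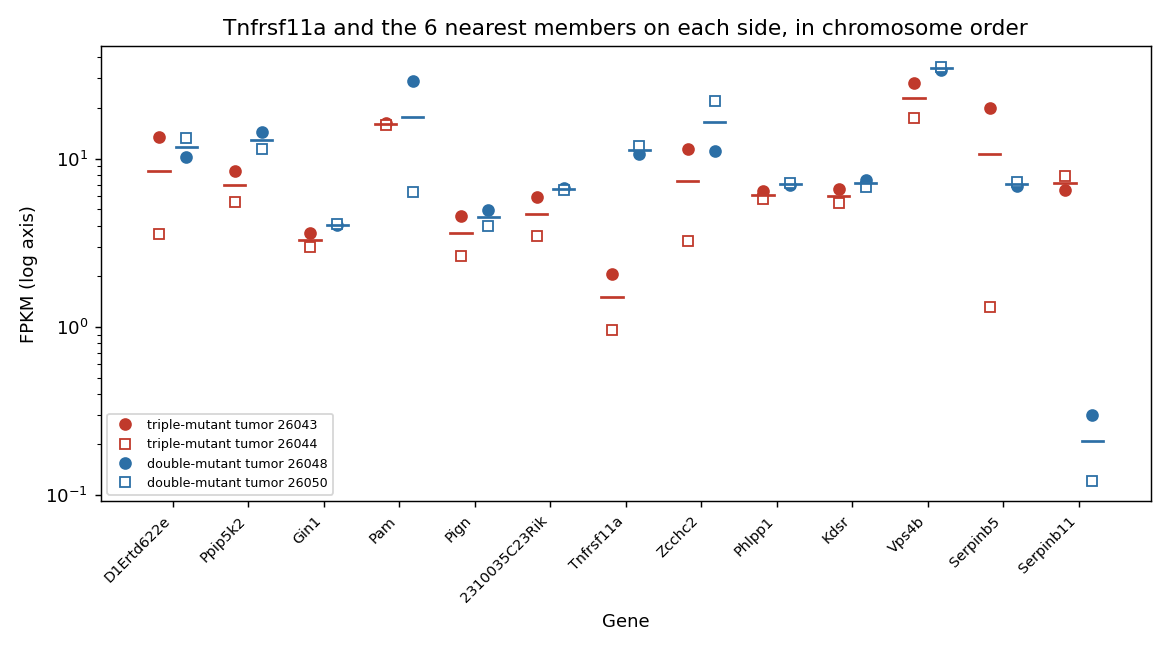
FPKM (log axis) of Tnfrsf11a and its nearest members in each of the 4 tumors, in order along the chromosome, with genotype by color and short lines at the mean of each genotype. Tnfrsf11a lies at 10.6 and 11.9 FPKM in double-mutant and at 2.07 and 0.96 FPKM in triple-mutant tumors, whereas Pign, 2310035C23Rik, Phlpp1 and Kdsr stay between 2.65 and 7.49 FPKM in all 4.

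The clade B serpins that begin 1.01 Mb after Tnfrsf11a differed in pattern. Of 12 rows of this family in the list, 3 passed the FPKM threshold, and they did so in differing tumors. Serpinb11 was read at 6.54 and 7.84 FPKM in the triple-mutant and at 0.30 and 0.12 FPKM in the double-mutant tumors, so both triple-mutant values were far above the others. Its log2 fold change was 2.76 (SE 0.31). Serpinb11 reached the threshold for membership through the triple-mutant tumors alone, the genotype in which it was high, so a difference was built into its choice and its p is not given. Serpinb5, which encodes maspin, a serpin of mammary and other epithelia, was read at 20.2 and 1.32 FPKM in triple-mutant and at 6.89 and 7.24 FPKM in double-mutant tumors. The highest and the lowest value of Serpinb5 were both in triple-mutant tumors, so its log2 fold change of -0.20 (SE 1.10) became 1.39 without tumor 26044 and -1.80 without tumor 26043. Serpinb8, singled out after its values were seen, was read at 9.69, 0.38, 3.10 and 0.26 FPKM, high in one tumor of each genotype.

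No member passed the threshold of 0.05 on the adjusted p (limma with Benjamini-Hochberg adjustment; 0% of all 12752 rows tested passed it). At an unadjusted p under 0.05, 7 members were higher in triple-mutant tumors, or 7.07%, beside 5.91% of all rows tested, and 8 were lower, or 8.08%, beside 3.91%. On the rest of chromosome 1 the shares at this limit were 3.66% higher and 9.7% lower. Of the members, 3 reached 1 FPKM in both tumors of 1 genotype and in neither of the other, Nppc and Serpinb11 in triple-mutant and Cdh19 in double-mutant tumors, and had to differ. Without these 3 the counts at an unadjusted p under 0.05 were 5 higher and 7 lower. With 2 tumors a genotype, an exact permutation test over tumors cannot give a p under 0.333. The order of the tumors was therefore counted: in 11 members (11.1%) both triple-mutant tumors lay above both double-mutant tumors, beside 21.3% of all rows, and in 34 members (34.3%) both lay below, beside 22.9%. Without Nppc, Serpinb11 and Cdh19 the order counts were 9 higher and 33 lower of 96 members. On chromosome 1 outside the interval, 42.6% of 629 rows lay below and 9.7% above. These counts require that no tumor crosses over and rise when a genotype has only 1 tumor left: without 26043 the lower count was 61, without 26044 the higher count was 35, without 26048 the higher count was 26, and without 26050 the counts were 17 higher and 54 lower.

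The members' median log2 fold change was -0.23, with the middle of the distribution between -0.56 and 0.19, and 62 of 99 were negative. The median over all rows tested was -0.02. On the rest of chromosome 1 it was -0.37, with 462 of 629 rows negative, so the members' median lay between that of all rows and that of the rest of their own chromosome. Without tumor 26044 the members' median was -0.059 and that of the rest of chromosome 1 was -0.22, and without tumor 26043 they were -0.40 and -0.55. Across 20 tiles of 10 Mb along chromosome 1, all 20 medians were negative, and in the 14 tiles with at least 20 rows they ranged from -0.54 to -0.03. Chromosomes 12 and 8 had medians like that of chromosome 1, at -0.41 and -0.36, and chromosomes 10 and 5 lay on the other side, at 0.44 and 0.23.

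**Figure D2:**
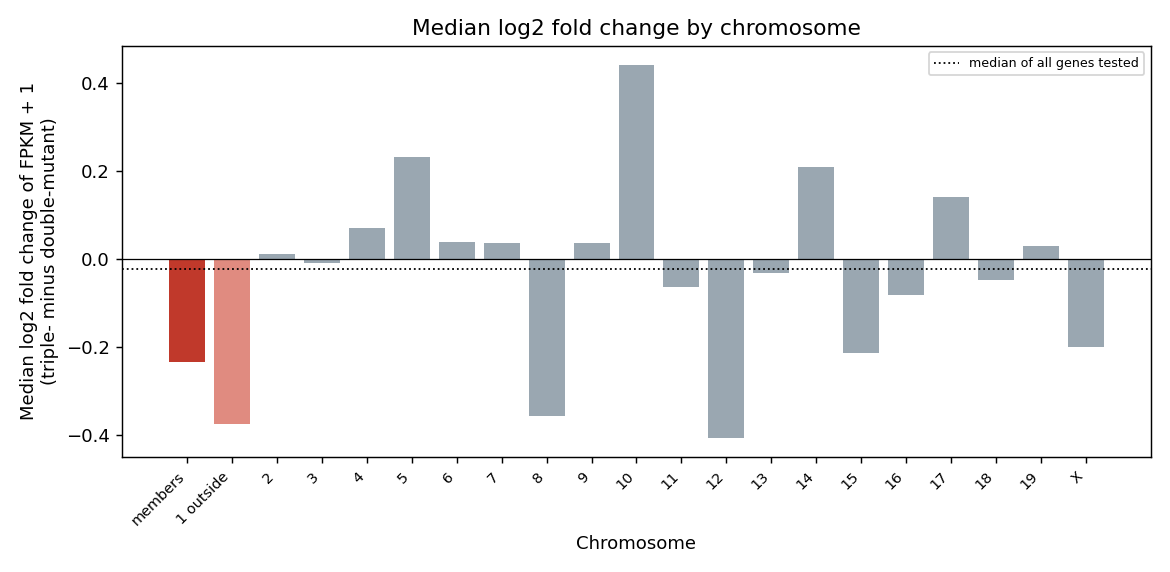
Median log2 fold change (triple-mutant minus double-mutant) of the tested rows of each chromosome, as bars, with chromosome 1 split into the members and the rows outside the interval, and the median of all rows as a dotted line. The members sit at -0.23, between the genome-wide median of -0.02 and the -0.37 of the rest of chromosome 1, and chromosomes 12 and 10 mark the extremes at -0.41 and 0.44.

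The median log2 fold change was compared by distance from Tnfrsf11a. The median log2 fold change was -0.22 in the 9 members within 2 Mb, -0.58 in the 6 members from 5 to 10 Mb and -0.23 in the 84 members beyond 10 Mb. Without tumor 26043 these were -0.72, -0.85 and -0.32, and without tumor 26044 they were -0.099, -0.28 and -0.024. Serpinb11 is in the nearest group, Cdh19 in the middle group and Nppc in the farthest group. Their order was built into their choice, and they were not left out of the medians or correlations given here. Over the 99 members, which share the same 4 tumors, the Spearman rank correlation of distance with the log2 fold change was -0.02 and with its absolute size 0.15. By side, the correlation with absolute size was 0.28 over the 72 members before Tnfrsf11a and -0.04 over the 27 after it. Members before Tnfrsf11a had a median of -0.23 and those after it -0.40.

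**Figure D3:**
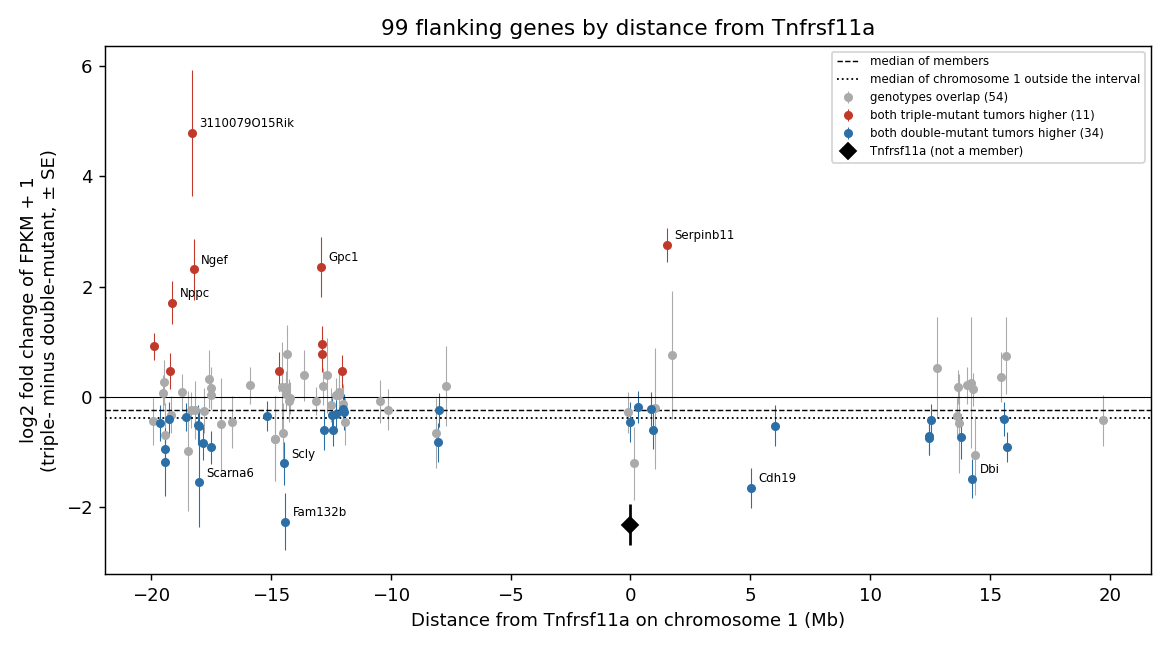
Log2 fold change of each of the 99 members (triple-mutant minus double-mutant, on log2(FPKM + 1)) against distance from Tnfrsf11a in Mb, with bars of 1 SE, color for the order of the genotypes, and Tnfrsf11a as a diamond. Points scatter on both sides of 0 near to and far from Tnfrsf11a, from -2.26 to 4.79, and the members within 2 Mb lie between -1.20 and 2.76.

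The triple-mutant tumors differed from each other about as much as tumors of different genotype did. The median absolute difference over the members was 0.52 log2 units between 26043 and 26044 and 0.34 between 26048 and 26050, beside 0.42 to 0.67 for the pairs across genotypes. Tumor 26044 had the lowest value of the 4 in 52 members (52.5%), beside 38.9% of all rows, and was under 26043 in 74 members (74.7%, beside 61.3% of all rows). The members' median deviation from their own 4-tumor mean was 0.11, -0.29, 0.17 and -0.01 log2 units, and on the rest of chromosome 1 it was -0.04, -0.35, 0.17 and 0.15. Over all rows tested it was 0.06, -0.10, 0.03 and -0.02. Tumor 26044 had the lowest median deviation in each of these sets.

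**Figure D4:**
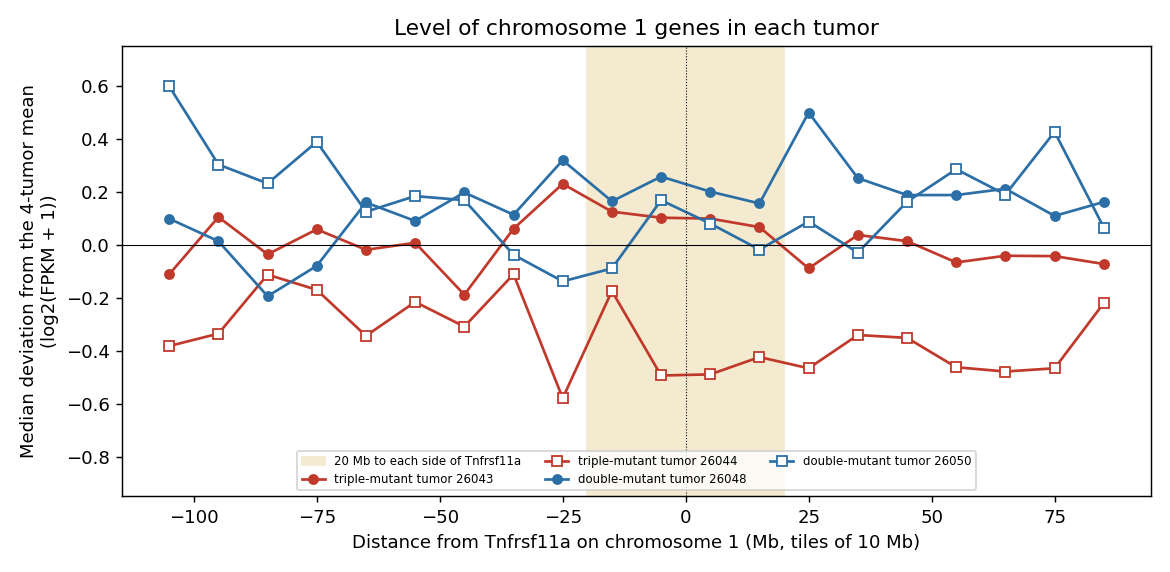
Median deviation in log2 units of chromosome 1 rows from each row's 4-tumor mean, in tiles of 10 Mb placed by distance from Tnfrsf11a in Mb, with 1 line per tumor and the interval shaded. Tumor 26044 runs lowest along most of the chromosome, with a median of -0.29 over the members, beside -0.01 in 26050 and 0.17 in 26048.

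In 9 members tumor 26044 was the lowest by at least 1 log2 unit (9.09%, beside 4.80% of all rows). They are Snora75, Arl4c, Mlph, Rab17, Fam132b, D1Ertd622e, Zcchc2, Serpinb5 and Epb4.1l5, named after their values were seen. Mlph, the linker of Rab27 vesicles to myosin, was read at 16.6, 3.71, 21.2 and 9.63 FPKM. Rab17, a small GTPase of epithelial membrane traffic, was read at 7.63, 1.51, 11.0 and 4.18 FPKM, and Epb4.1l5, a FERM protein of epithelial polarity, at 12.4, 1.53, 9.74 and 5.16 FPKM. These genes were lowest in the tumor with the lowest luminal marker sum, 209 FPKM beside 1593 to 2019 FPKM in the others, and the part of that difference in their values was not tested. The reverse pattern, highest in 26044 by at least 1 log2 unit, was seen in 2 members (2.02%, beside 4.41% of all rows), Gpc1 and Tmem37, a membrane protein gene named likewise, which was read at 4.25, 54.2, 9.40 and 18.4 FPKM. Tumor 26043 was the highest by that margin in 5 members (5.05%, beside 2.96% of all rows), which were 3110079O15Rik, Per2, Serpinb5, Serpinb8 and Tfcp2l1.

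The members that were higher in triple-mutant tumors by at least 1 log2 unit without overlap numbered 5 (5.05%, beside 7.3% of all rows and 4.45% of the rest of chromosome 1), or 3 without Nppc and Serpinb11. The largest difference was that of 3110079O15Rik (Snorc in RefSeq), which encodes a proteoglycan-like membrane protein known from cartilage. It was read at 1097 and 136 FPKM in triple-mutant and at 7.27 and 22.8 FPKM in double-mutant tumors (log2 fold change 4.79, SE 1.14). In every tumor the FPKM lay above its Cufflinks interval, which ran from 338 to 367 FPKM in 26043 and from 37.3 to 47.4 FPKM in 26044. Both triple-mutant tumors were above both others, but they also differed from each other more than the double-mutant tumors did. Next to it, Ngef, a guanine nucleotide exchange factor downstream of ephrin receptors, was read at 16.7 and 8.51 FPKM against 2.76 and 0.82 FPKM (log2 fold change 2.31, SE 0.55). Neu2, whose first annotated start lies 156 bases from Ngef on the other strand, was read at 1.66, 0.07, 1.02 and 0.94 FPKM, near the threshold. The genes on either side of that gap did not show the same order of tumors. RefSeq also gives starts of Neu2 farther from Ngef, and which start was used in these tumors is not known.

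Gpc1, which encodes glypican 1, a heparan sulfate proteoglycan of the cell surface, was read at 60.9 and 157 FPKM in triple-mutant and at 22.2 and 15.0 FPKM in double-mutant tumors. These values also lay above their Cufflinks intervals, which in tumor 26044 ran from 92.0 to 97.1 FPKM. Tumor 26044 was highest, and the log2 fold change was 2.36 (SE 0.54). Nppc, which encodes C-type natriuretic peptide, was read at 2.38 and 4.0 FPKM against 0.05 and 0.50 FPKM (log2 fold change 1.71, SE 0.38). Like Serpinb11, described above, it reached the threshold for membership in the triple-mutant tumors alone. Rnpepl1, an aminopeptidase gene with the next largest difference, was read at 66.2 and 57.0 FPKM against 38.3 and 25.3 FPKM (log2 fold change 0.96, SE 0.32). Adjusted p values of 3110079O15Rik, Ngef, Gpc1 and Rnpepl1 ranged from 0.396 to 0.487 (limma with Benjamini-Hochberg adjustment). The basal marker sum was also higher in both triple-mutant tumors, at 1736 and 1259 FPKM against 68.1 and 46.6 FPKM, and its part in these differences was not tested. In tumor 26044 most of that sum was Acta2.

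The members that were lower in triple-mutant tumors by at least 1 log2 unit without overlap numbered 6 (6.06%, beside 4.65% of all rows and 9.22% of the rest of chromosome 1), or 5 without Cdh19. Fam132b (Erfe in RefSeq), which encodes erythroferrone, a hormone that lowers hepcidin, was read at 3.36 and 0.80 FPKM in triple-mutant and at 11.7 and 13.2 FPKM in double-mutant tumors (log2 fold change -2.26, SE 0.52). Cdh19, a type II cadherin known from Schwann cells, was read at 0.55 and 0.01 FPKM against 2.50 and 3.42 FPKM (log2 fold change -1.65, SE 0.37), and reached the threshold in the double-mutant tumors alone. Dbi, the acyl-CoA-binding protein, is among the most abundant members and was read at 490 and 306 FPKM against 1031 and 1144 FPKM (log2 fold change -1.48, SE 0.35). In each of these genes both triple-mutant values lay well under both double-mutant values, and 26044 was the lower of the pair. 3110009E18Rik, which shares the gap of 90 bases with Dbi and is named after its values were seen, was read at 8.32, 7.85, 8.03 and 6.56 FPKM, with no such difference. Scly, the selenocysteine lyase, was read at 17.4, 9.14, 31.4 and 29.5 FPKM (log2 fold change -1.21, SE 0.39). Adjusted p values of Fam132b, Dbi and Scly ranged from 0.396 to 0.480 (limma with Benjamini-Hochberg adjustment).

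The other lower members are small RNA genes inside other genes, where reads cannot be assigned with certainty. Scarna6, a Cajal body RNA within Atg16l1, was listed at 0 FPKM in 26043 and read at 3.69, 4.24 and 6.58 FPKM in the others, and Snora75, a small nucleolar RNA within Ncl, was read at 24.9, 7.99, 26.2 and 42.7 FPKM. Snord82, also within Ncl, was read at 419, 1020, 1413 and 784 FPKM, in another order of the tumors. Its Cufflinks intervals lay far lower, with bounds between 0.57 and 12.7 FPKM, so its level is uncertain. The levels of Snora75 and Scarna6 are uncertain likewise. Snora75 had upper bounds of 2.31 to 4.96 FPKM, under its FPKM in every tumor. Scarna6 had upper bounds of 1.85 to 2.75 FPKM in 26044, 26048 and 26050, also under its FPKM. Poly-T selection is not designed to recover such RNAs, and their FPKM rest on lengths of 68 to 248 bases. The rows of Hjurp, 6430706D22Rik and A730008H23Rik also overlap and carry the same RefSeq gene, as do the ends of Farp2 and Stk25 in part, so their reads may be split between rows.

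**Figure D5:**
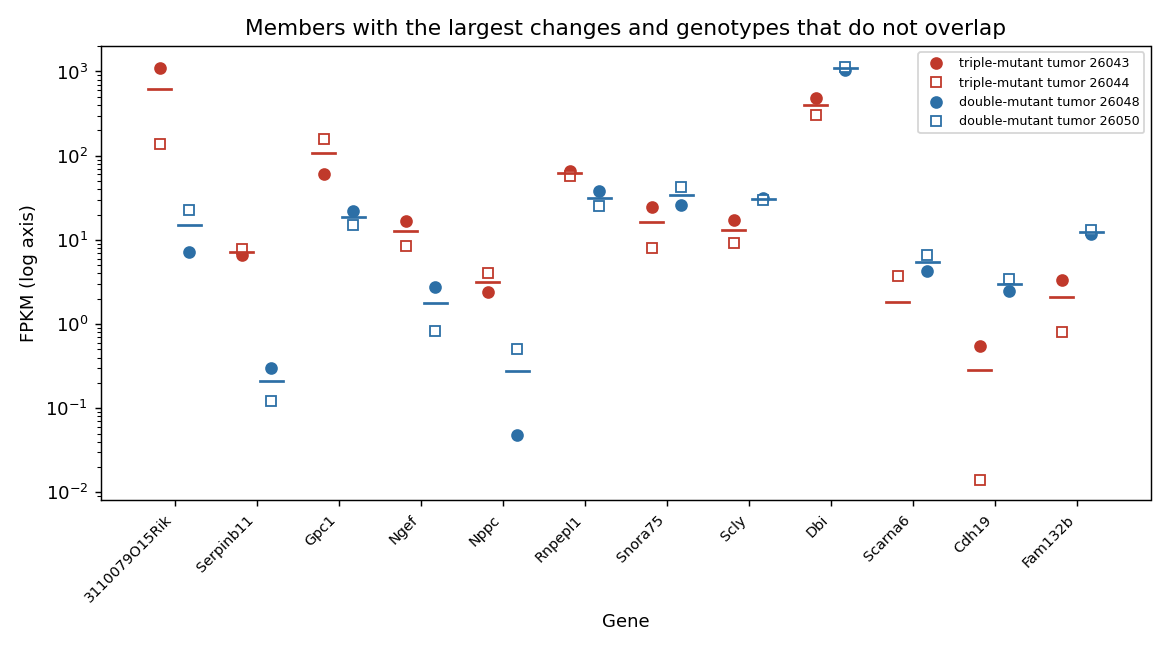
FPKM (log axis) in each tumor for the members with the largest differences without overlap, higher ones first, with 1 point per tumor, genotype by color and short lines at the mean of each genotype. 3110079O15Rik spans 7.27 to 1097 FPKM and Dbi 306 to 1144 FPKM, and the Scarna6 value of 0 in tumor 26043 cannot be drawn on this axis.

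By function, the nucleolar, RNA and translation genes had the lowest median of the 9 lists, -0.70, with 11 of 12 members negative (91.7%) and 7 lower without overlap (58.3%). Over all rows tested the median was -0.02, 51.6% were negative, 22.9% were lower and 21.3% higher without overlap, and on the rest of chromosome 1 the median was -0.37, 73.4% were negative, 42.6% were lower and 9.7% higher. The counts of every list are to be read beside these shares. No member of any list passed the adjusted threshold (limma with Benjamini-Hochberg adjustment). Ncl, which encodes nucleolin, was read at 114 and 91.5 FPKM against 177 and 219 FPKM (log2 fold change -0.94, SE 0.29), an adjusted p of 0.476. Ddx18, a DEAD-box helicase of ribosome biogenesis 15.7 Mb after Tnfrsf11a, with Ncl 19.4 Mb before it, was read at 36.5 and 37.9 FPKM against 62.8 and 79.0 FPKM (log2 fold change -0.90, SE 0.27). Mki67ip (Nifk in RefSeq), which binds Ki-67, was read at 38.4, 29.9, 46.1 and 68.6 FPKM, and Tsn, an RNA-binding protein gene, at 36.8, 33.5, 50.5 and 70.6 FPKM. The last 3 are named after their values were seen. In all 4 genes the triple-mutant tumors lay below the double-mutant tumors, and tumor 26050 was the highest. The list also holds Snora75 and Snord82, which lie within Ncl, so that 3 of its 12 members are of the same locus and their reads may be split between rows.

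The ubiquitin, neddylation and proteasome genes were negative in 6 of 6 members, with a median of -0.33, near that of the rest of chromosome 1, and 2 lower without overlap (33.3%). These were Psmd1, a subunit of the proteasome base, at 79.4, 51.4, 96.4 and 83.1 FPKM, and Cops8, a subunit of the COP9 signalosome, at 43.0, 34.9, 49.7 and 49.0 FPKM. Another signalosome gene, Myeov2 (Cops9 in RefSeq), overlapped between the genotypes at 245, 273, 280 and 263 FPKM. Autophagy and membrane traffic genes had a median of -0.45, with 10 of 12 negative (83.3%) and 4 lower without overlap (33.3%), among them Atg16l1, a part of the LC3-conjugating machinery, at 14.6 and 11.6 FPKM against 20.7 and 17.8 FPKM. Within that list tumor 26044 was the lowest on the median deviation, at -0.48 log2 units.

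The kinase, phosphatase and lipid signaling genes had a median of -0.34 over 14 members, with 2 higher (14.3%) and 7 lower (50%) without overlap, shares near those of the rest of chromosome 1. Dgkd, a diacylglycerol kinase, was read at 14.5 and 15.2 FPKM against 31.5 and 23.9 FPKM (log2 fold change -0.84, SE 0.30), and Ngef was the largest of the higher ones. Metabolic and sugar-modifying enzymes had a median of -0.23 over 12 members, with 1 higher (8.33%) and 4 lower (33.3%) without overlap, Dbi and Scly among the latter. Of the receptors, channels and transporters only 4 of 16 rows passed the threshold, with a median of -0.51 and 1 lower without overlap (25%). This was Gpr35, an orphan G protein-coupled receptor, at 1.15 and 0.46 FPKM against 1.38 and 2.03 FPKM.

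Transcription, chromatin and centromere genes had a positive median of 0.39, with 7 of 9 positive (77.8%, beside 48.4% of all rows). Without overlap 2 were higher and 2 lower (22.2% each), which is close to the shares over all rows. Lrrfip1, a leucine-rich repeat regulator, was read at 23.5, 15.2, 15.2 and 11.9 FPKM and Thap4, a THAP domain gene, at 40.4, 31.7, 28.8 and 22.9 FPKM. Ptma, which encodes prothymosin alpha and is the most abundant member, was lower at 1235 and 1052 FPKM against 1614 and 1407 FPKM (log2 fold change -0.40, SE 0.30). Adhesion, matrix and cytoskeleton genes had a median of 0.04 over 7 members, with 2 higher and 2 lower without overlap (28.6% each), Gpc1 and Cdh19 among them. Cdh19 reached the threshold for membership in the double-mutant tumors alone, so its order was built into its choice. The 20 members in no list had a median of 0.05, with 3 higher (15.0%) and 5 lower (25%) without overlap. The clade B serpins had a median of 0.76 over 3 members, which was the value of Serpinb8. Serpinb11 was among these 3, and its order was likewise built into its choice.

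The members from 5 to 10 Mb before Tnfrsf11a form a run of 4 genes. Ppip5k2, a kinase of inositol pyrophosphates, was read at 8.48 and 5.55 FPKM against 14.5 and 11.5 FPKM (log2 fold change -0.82, SE 0.35). Gin1, which shares an 86-base gap with it, was read at 3.61, 2.99, 4.04 and 4.07 FPKM (log2 fold change -0.24, SE 0.31). Both were lower in both triple-mutant tumors. Pam, the peptide-amidating enzyme, was read at 16.3, 15.9, 29.2 and 6.32 FPKM, where the double-mutant tumors enclosed the triple-mutant ones, and D1Ertd622e (Macir in RefSeq) at 13.4, 3.54, 10.3 and 13.3 FPKM, where only tumor 26044 was low. Of the 7 head-to-head pairs, 3 had the same sign of log2 fold change in both genes.

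The ends of the interval resembled each other. Cab39, a scaffold that activates the kinase STK11, was read at 41.5, 19.8, 40.3 and 38.5 FPKM, and Slc35f5, a nucleotide sugar transporter family member, at 25.5, 12.1, 28.3 and 20.3 FPKM. In each, tumor 26043 lay within or above the double-mutant range and tumor 26044 alone was low. Their log2 fold changes were -0.44 (SE 0.43) and -0.43 (SE 0.46).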

How the data were processed

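RNA of 4 mouse mammary tumors, 2 per genotype, was analysed. Per the paper and the submitters' processing notes, the authors aligned 50-bp single-end reads to mm10 with TopHat2 2.0.10 and Bowtie 0.12.9 and estimated FPKM with Cufflinks 2.1.1. The deposited tables hold FPKM per gene, with Cufflinks' interval and status. The read counts that the authors tested with DESeq2 1.6.2 were not analysed here. Whole reads could not be recovered from the FPKM, so depth is unknown; FPKM summed to 690775 to 796031 per tumor, with 12150 to 12681 rows at 1 FPKM or more.

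Coordinates are GRCm38, counted from 1. All 99 members matched a RefSeq gene that overlaps them. Log2(FPKM + 1) was fitted with limma 3.58.1 (trend; R 4.3.3) over the 12752 rows with at least 1 FPKM in 2 tumors, and p values were adjusted by Benjamini-Hochberg with 0.05 as the threshold. Replicates are separate tumors; littermates were used, but pairs are not given. Distance is the gap between loci. The fit was tested on simulated data. Named were the 6 members nearest on each side, the 6 with the largest difference without overlap in each direction, the ends, up to 2 per list, the 5 most abundant and those at the threshold, 38 in all; others are marked. Members and lists were chosen with earlier results of these data known. Alternatives were a pseudocount of 0.1, a filter of 5 FPKM or none, TPM, quantile normalization, limma without the trend, rows of status OK and each tumor left out. Tables and plots were made in Python 3.11.15 (numpy 2.4.6, pandas 2.3.3; matplotlib 3.10.9).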

Additional observations from a re-analysis of the deposited data

How the results depend on the processing

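No member passed the adjusted threshold of 0.05 under any of the 11 alternatives (limma with Benjamini-Hochberg adjustment). Under the pseudocount, filters, TPM, quantile normalization, limma without the trend and status alternatives, the medians kept their sign. Having no filter, no trend or only rows of status OK leaves the members' fold changes and order as they are. A pseudocount leaves their order as it is, so the counts without overlap were fixed in advance under these alternatives. The filter of 5 FPKM left 75 members, 10 of them higher and 26 lower without overlap. TPM gave 9 higher and 33 lower and quantile normalization 15 and 38, beside 11 and 34 in the main fit. When the tumors were left out one by one, the higher count ranged from 16 to 35 and the lower count from 39 to 61; with 1 tumor in a genotype, order is easier to satisfy by construction, and the lone tumor is assumed to vary like the others. The median over all members ranged from -0.40 to -0.059, within 2 Mb from -0.72 to -0.099, from 5 to 10 Mb from -0.85 to -0.28 and over 10 Mb from -0.32 to -0.024. The sign turned in 9 named genes: Myeov2 (-0.15 to 0.0087), St8sia4 (-0.50 to 0.029), Pign (-0.58 to 0.032), D1Ertd622e (-1.48 to 0.19), Serpinb5 (-1.80 to 1.39), Cab39 (-0.95 to 0.073), Slc35f5 (-0.94 to 0.086), Neu2 (-0.89 to 0.42) and Pam (-0.82 to 1.22), and the cause was not tested. St8sia4 also turned without 26048, at 0.017. The median over all rows moved to -0.12 without 26043 and to 0.06 without 26044. No member lay 2 to 5 Mb away, so that median has no value. No paired analysis was possible because it is not given which of the mice were littermates. Cufflinks' intervals, at a median of 7.53% to 9.61% of the midpoint, cover 1 tumor's measurement only, and 42 to 44 members of each tumor had an FPKM that their own interval did not cover.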

Other observations

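In addition to the members, 10 rows of the interval reached 1 FPKM in 1 tumor only and were left out by the threshold. Serpinb2, a clade B serpin of keratinocytes and macrophages, was read at 3.42 FPKM in 26043, was listed at 0 in 26044 and was read at 0.03 and 0.43 FPKM in the double-mutant tumors. Kcnj13, an inward rectifier potassium channel, was read at 0.22, 2.06, 0.13 and 0.18 FPKM, and Prlh, which encodes prolactin-releasing peptide, at 3.73 FPKM in 26048 with 0 listed in the others. Each of these was carried by a different tumor. Actr3, a subunit of the Arp2/3 complex, was listed at 0 with a failed status in all 4 tumors, so its level is not known from these values.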
